A study of Mus musculus with 21 samples.

Results

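The MYC, MAX and MXD network is a family of basic helix-loop-helix leucine zipper proteins, and its transcripts were followed through 7 populations of blood-forming cells that had been sorted from C57BL/6 bone marrow. Its 9 genes (Myc, Mycn, Mycl, Max, Mxd1, Mxd3, Mxd4, Mxi1 and Mnt) were picked by name, through the RefSeq accession of each array probe, out of 18217 named genes on 41174 probes. Where a gene had several probes, the brightest stood for it. The first 3 encode MYC proteins, Max encodes their shared partner, and the remaining genes encode repressors that use the same partner.

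Each population, called a fraction here, was measured on 3 arrays, 21 arrays in all, and no fraction was treated. KLS (lin- ckit+ sca1+) holds the multipotent progenitors. On the erythroid side lie PreMegE (CD150+ CD105- and FGCrI/II-), CFUe (given as CD150- CD105- FCGrI/II-) and Ter119 (CD71+ and Ter119+). On the myeloid side lie PreGM (CD150- and CD105- with FGCrI/II-), GMP (CD150- with FCGrI/II+) and Mac1Gr1 (Mac1+ and Gr1+). The labels give lin- ckit+ sca1+ to all 4 intermediate fractions, and the same antigens to CFUe as to PreGM. Lin stood for B220, CD3, CD4, CD8, CD41, Mac1, Gr1 and Ter119, and the Ter119 and Mac1Gr1 fractions carry no such depletion in their labels. Age, sex and pooling of the animals are not in the labels, nor is it said that replicates came from separate animals, so p-values measure only the spread between these samples, which may be technical.

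MYC proteins bind DNA only as dimers with MAX, at a short palindrome called the E-box, and raise genes for ribosome assembly, nucleotide and polyamine synthesis and the cell cycle. The MXD proteins, MXI1 and MNT compete for MAX, bind the same E-box and recruit SIN3 corepressors with histone deacetylases. In blood formation MYC is known for the growth and division of progenitors, and MXD1 for the exit from division in maturing granulocytes.

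The E-box itself lies in the promoters of some network genes. In the RefSeq promoter table of the GRCm38.p6 build (250 bases before to 50 after each start), the letters CACGTG, which read the same on both strands, occurred in 2349 of 32851 promoters (7.15%). Of the 9 network genes, 8 were in the table, and 3 of those (37.5%) held the motif, against 2187 of 27025 genes (8.09%). Myc was not in it. Among textbook MYC target genes, 6 of 19 in the table (31.6%) held it. The windows below are shown because they are the sites where MYC and MXD dimers would meet at network genes, with 3 target genes whose levels are given further on; capitals mark CACGTG, and each line reads 5′ to 3′ on the strand of the gene. They lie at chr12:76962234-76962263 (minus strand) for Max, chr11:74830789-74830818 (plus) for Mnt, chr5:34187912-34187941 (minus) for Mxd4, chr10:127063405-127063434 (plus) for Cdk4, chr7:46845744-46845773 (plus) for Ldha and chr11:93968273-93968302 (minus) for Nme1.
Max: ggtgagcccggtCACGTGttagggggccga
Mnt: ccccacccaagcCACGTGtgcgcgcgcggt
Mxd4: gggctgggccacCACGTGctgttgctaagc
Cdk4: aagtcaaggggtCACGTGggatagcaacag
Ldha: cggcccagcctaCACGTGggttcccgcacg
Nme1: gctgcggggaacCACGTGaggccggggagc
The first motif base lay 3 bases before the start of Max, 123 before that of Mnt and 219 before that of Mxd4. Cdk4 held 4 such sites in its 300 bases, whereas no promoter of Mycn, Mycl, Mxd1, Mxd3 or Mxi1 held these letters. Binding was not measured here, and a match describes the sequence only.

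Levels are log2 signals from which the 75th percentile of that array was subtracted, so that 0 is the 75th percentile, and a level of 1 probe is not set against that of another. Between 56.4% and 77.4% of probes per array were well above background. Before the results, 3 features of the arrays need stating. Xist, the transcript of the inactive X chromosome, was low (-7.47 to -4.47) and the Y-linked Ddx3y was high (1.17 to 1.93) on all arrays of KLS, PreMegE and Ter119 and on replicate 3 of CFUe and of PreGM. The other 10 arrays, those of GMP and Mac1Gr1 among them, had high Xist (3.90 to 5.61) and low Ddx3y (-7.73 to -6.17). The second is that the Ter119 arrays carried granulocyte transcripts: all 12 genes of a granulocytic list were well above background on each of them, at a mean level of 6.66 to 6.69, against 7.38 to 7.63 in Mac1Gr1 and -3.68 to -1.58 in CFUe. Genes of other blood cells were also higher in Ter119 than in CFUe. These were 7 of 7 B cell, 3 of 3 T cell and 8 of 10 macrophage genes, where 29.3% of all genes were called higher. In Mac1Gr1 against GMP 7 of 7 B cell, 1 of 3 T cell and 9 of 10 macrophage genes were higher, with 26.9% of all genes. The third is that KLS carried macrophage transcripts, at a mean level of 0.62 to 2.11 on its arrays, against -4.46 to -3.49 in PreMegE and -4.04 to -3.74 in PreGM. The part of these cells in the comparisons of KLS, Ter119 and Mac1Gr1 given below was not tested. Among the genes of the sorted antigens, Slamf1 encodes CD150. It was above background on every array of KLS and PreMegE, and on no array of CFUe, PreGM or GMP. Eng and Ly6a did not follow the labels in all fractions. Eng, which encodes CD105, stood at 2.33 to 2.57 in CFUe, 2.06 to 2.25 in PreMegE and 1.64 to 1.71 in PreGM, all labelled CD105-. In KLS, whose label does not name CD105, it stood at 1.90 to 2.26. Ly6a, which encodes Sca1, was at 2.38 to 2.70 in KLS. It was at -3.35 to -2.91 in PreMegE and -6.83 to -4.48 in CFUe, both labelled sca1+.

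**Figure D1:**
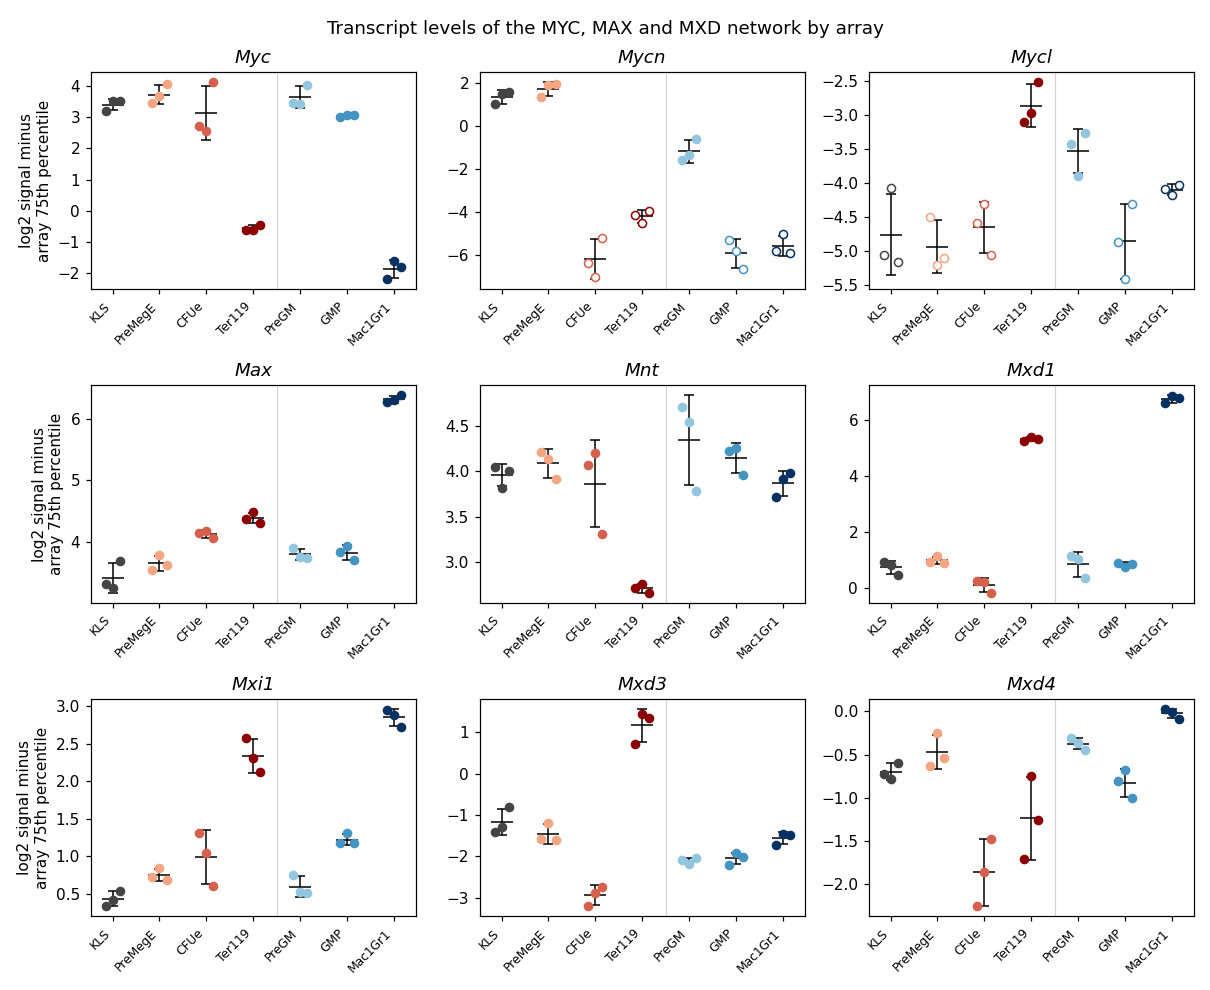
Level of each network gene on each array, as log2 signal minus the array's 75th percentile, for 7 fractions in order of maturation (erythroid side left of the grey line, myeloid side right, KLS first). Points are arrays, bars are the mean and SD over 3 arrays, and open points mark fractions in which not every array was well above background; Myc is low and Mxd1 high in Ter119 and Mac1Gr1.

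The network changed at the last step of each lineage, where Myc fell and Mxd1 rose, and in fewer genes before it. A change was called at an adjusted p under 0.05 in limma and a size of at least 2-fold. Between Ter119 and CFUe, 7 of the 9 genes were called, when 61.1% of all 14285 genes tested were. Between Mac1Gr1 and GMP it was 4 of 9, with 57.7% of all genes called. Read against those shares, neither count sets the network apart from other genes. The first count held 5 higher and 2 lower, which became 2 higher and 3 lower with spike-in scaling, and the second held 3 higher and 1 lower, which became 1 higher and 6 lower. Earlier steps moved fewer: 0 of 9 from KLS to PreMegE (13.5% of all genes), 3 from PreMegE to CFUe, all lower (25.9%, with 14.2% lower), 2 from KLS to PreGM (8.72%) and 2 from PreGM to GMP, both lower (11.2%). With spike-in scaling 4 were called higher and 1 lower from PreGM to GMP. From KLS to PreMegE, 0 network genes had an unadjusted p under 0.05 in limma either. Side by side, PreMegE and PreGM differed in 2 network genes (12.3% of all genes), CFUe and GMP in 1, lower in CFUe (27.4%, with 15.5% lower), and Ter119 and Mac1Gr1 in 8 (43%), of which 4 were higher and 4 lower in Ter119. With spike-in scaling CFUe was lower than GMP in 9 of 9, and Ter119 was higher than Mac1Gr1 in 1 and lower in 5. The 9 include Mycn, which was above background on no array of CFUe or GMP. Shares of all genes called were not computed under spike-in scaling. Its median change of all probes was -1.33 in Ter119 against CFUe, -1.86 in Mac1Gr1 against GMP and 0.99 in GMP against PreGM. It was -1.16 in CFUe against GMP and -0.67 in Ter119 against Mac1Gr1. In bulk samples fewer cells of a type and less RNA per cell cannot be told apart, and all levels are relative to the other transcripts of the same array.

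**Figure D2:**
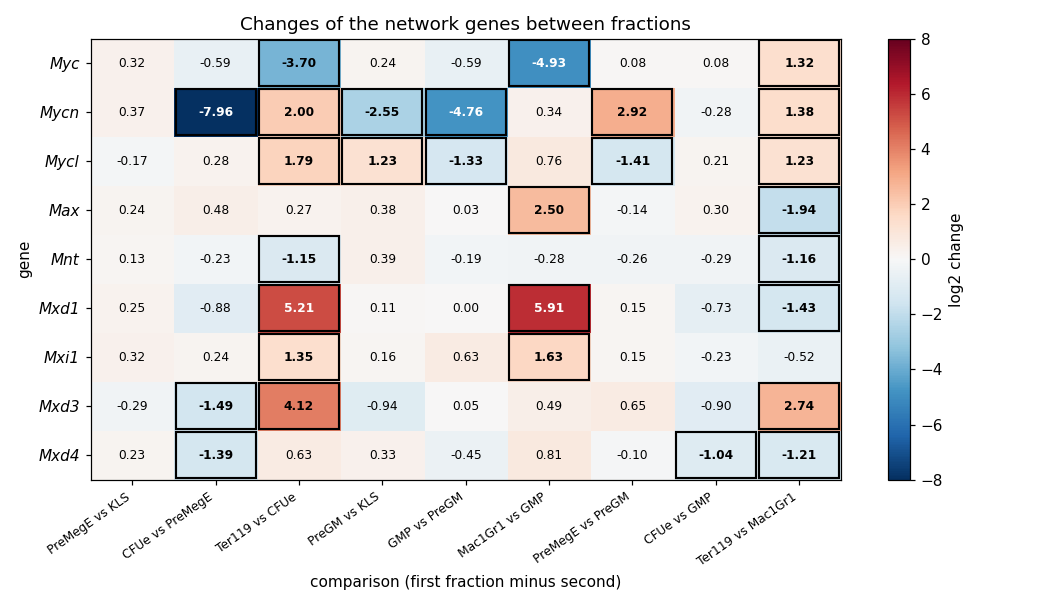
log2 change of each network gene (rows) in 9 comparisons of fractions (columns), the first fraction minus the second. Boxed bold values were called by limma at an adjusted p under 0.05 and 2-fold; the last erythroid and myeloid steps hold opposite values for Myc and Mxd1.

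Myc, the best known of the activators, was abundant in every progenitor and fell at both last steps. Its level was 3.21, 3.50 and 3.50 on the KLS arrays, 3.44, 3.68 and 4.05 in PreMegE, and 2.71, 2.56 and 4.14 in CFUe. It was 3.45, 3.43 and 4.04 in PreGM and 3.02, 3.07 and 3.07 in GMP. The GMP arrays lay below every array of KLS, PreMegE and PreGM, while the other pairs of progenitor fractions overlapped. Among the progenitor fractions, no neighbours in the order of levels were called. In Ter119 the values dropped to -0.63, -0.60 and -0.45, and in Mac1Gr1 to -2.20, -1.63 and -1.81, with no overlap between either and any progenitor. Myc was 13.0-fold lower in Ter119 than in CFUe (log2 change -3.70 ± 0.31 SE, adjusted p 7.14e-09) and 30.5-fold lower in Mac1Gr1 than in GMP (-4.93 ± 0.31, adjusted p 1.60e-10). Myc was also higher in Ter119 than in Mac1Gr1 (1.32 ± 0.31, adjusted p 0.00120). That last call was lost with spike-in scaling (0.59), normexp background correction (0.95), a block for Xist (0.27) and the dimmest Myc probe (0.15). Here and below, the Xist block is estimated only from CFUe and PreGM, the only fractions with arrays of both Xist classes.

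The Myc probe was printed at 10 spots per array, and their log2 values had an SD of 0.0371 to 0.210 within an array, below the SD between CFUe arrays of 0.87. That CFUe spread came from replicate 3, which lay 1.50 above the mean of replicates 1 and 2 and was the CFUe array with low Xist. Against PreMegE, CFUe gave a Myc change of -0.59 ± 0.31 (adjusted p 0.123). It was -1.09 without CFUe replicate 3 (adjusted p 0.000404), which passed the call, and 0.41 among the arrays of low Xist alone (adjusted p 0.174). The direction of this step for Myc therefore differed between the CFUe arrays. Both other Myc probes fell at the last steps as well, with -3.79 and -1.90 from CFUe to Ter119 and -5.03 and -1.91 from GMP to Mac1Gr1.

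Mycn, the N-MYC gene, was a transcript of the immature fractions. Its level was 1.01, 1.48 and 1.61 in KLS and 1.36, 1.92 and 1.94 in PreMegE. PreGM lay below both at -1.61, -1.34 and -0.60. In CFUe (-6.38, -7.06 and -5.22), GMP and Mac1Gr1 no array was well above background, and in Ter119 1 of 3 was. Mycn was thus at least 97.4-fold lower in CFUe than in PreMegE (adjusted p 2.51e-10), and at least 18.8-fold lower in GMP than in PreGM (adjusted p 3.55e-07). From KLS to PreGM it fell 5.85-fold (-2.55 ± 0.42, adjusted p 0.000350), which left it 7.58-fold higher in PreMegE than in PreGM (2.92 ± 0.42, adjusted p 5.15e-05). When slides entered the fit as a block, the KLS to PreGM value was -2.001 and no longer called (adjusted p 0.0682). A dimmer second Mycn probe gave -3.39 from PreMegE to CFUe, where it was below background, and 2.31 between PreMegE and PreGM, both called, but -0.55 from PreGM to GMP (adjusted p 0.503). In Ter119 Mycn was called higher than in CFUe (at least 1.57-fold, adjusted p 0.000375) and than in Mac1Gr1 (at least 1.43-fold, adjusted p 0.00838). Both of these rest on signals close to background and on 1 Ter119 array of 3 above it, and both were lost with quantile or spike-in scaling.

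Mycl, the L-MYC gene, stayed dim in every fraction and was well above background on all arrays of PreGM and Ter119 only. It read -3.43, -3.89 and -3.26 in PreGM and -3.11, -2.97 and -2.51 in Ter119, while fraction means elsewhere lay between -4.94 and -4.10, with 1 or 2 arrays of 3 above background. PreGM did not overlap KLS, GMP or PreMegE. Mycl rose from KLS to PreGM (1.23 ± 0.32, adjusted p 0.00885) and fell from PreGM to GMP (-1.33 ± 0.32, adjusted p 0.00472). PreMegE held less of it than PreGM (-1.41 ± 0.32, adjusted p 0.00278). It rose from CFUe to Ter119 (1.79 ± 0.32, adjusted p 6.74e-05) and was higher in Ter119 than in Mac1Gr1 (1.23 ± 0.32, adjusted p 0.00251). All 5 calls were lost with spike-in scaling, where the values were 0.62, -0.32, -1.26, 0.41 and 0.51.

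Max, the partner without which neither MYC nor MXD proteins bind, was high everywhere and highest in Mac1Gr1. It was at 6.28, 6.31 and 6.39 on the Mac1Gr1 arrays, at 3.83, 3.94 and 3.71 in GMP, and at 4.38, 4.48 and 4.31 in Ter119. Mac1Gr1 stood clear of all other fractions, whose means lay between 3.41 and 4.39. Max rose 5.67-fold from GMP to Mac1Gr1 (2.50 ± 0.12, adjusted p 3.78e-12), while the change from CFUe to Ter119 was 0.27 ± 0.12, below the 2-fold minimum. With spike-in scaling these 2 values were 0.47, not called, and -1.11, called lower, so the direction in Ter119 depends on the scaling. Ter119 lay 3.83-fold below Mac1Gr1 (-1.94 ± 0.12, adjusted p 4.04e-10), a call that held under every alternative run.

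Mnt, a repressor that is present in dividing and resting cells alike, varied least of the network: its fraction means spanned 1.64 on the log2 scale, against a median span of 2.42 over all genes. It was at 4.07, 4.20 and 3.31 in CFUe and at 2.71, 2.75 and 2.66 in Ter119. The 2 fractions did not overlap, although CFUe replicate 3 lay 0.82 below the mean of replicates 1 and 2. Mnt fell from CFUe to Ter119 (-1.15 ± 0.23, adjusted p 0.000186), and was lower in Ter119 than in Mac1Gr1 (-1.16 ± 0.23, adjusted p 0.000245). Neither size reached 2-fold with quantile scaling (-0.65 and -0.71), and the first was -0.98 without CFUe replicate 2 and -0.60 among low-Xist arrays. With a block for Xist the difference between Ter119 and Mac1Gr1 was -0.33 and no longer called (adjusted p 0.109 in limma). From GMP to Mac1Gr1 the Mnt value was -0.28 ± 0.23 (adjusted p 0.266).

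Mxd1, the founding MXD repressor, had the widest swing of the repressors and rose at both last steps. In the progenitors it was low: 0.91, 0.81 and 0.47 in KLS, 0.26, 0.22 and -0.17 in CFUe, and 0.90, 0.75 and 0.87 in GMP. Ter119 held 5.23, 5.39 and 5.32, and Mac1Gr1 held 6.60, 6.86 and 6.77. Neither mature fraction overlapped any other. From CFUe to Ter119 Mxd1 rose 37.0-fold (5.21 ± 0.18, adjusted p 1.27e-13), and from GMP to Mac1Gr1 60.0-fold (5.91 ± 0.18, adjusted p 3.28e-14). Both rises were called under every alternative run, the second Mxd1 probe included (4.53 and 5.66). The rise in Ter119 was accompanied by that of the granulocytic list (12 of 12 genes higher than in CFUe, median log2 change 10.31), and the part of granulocytes in the Ter119 value of Mxd1 was not tested. Mxd1 was 2.70-fold lower in Ter119 than in Mac1Gr1 (-1.43 ± 0.18, adjusted p 2.66e-06). With a block for Xist that difference was -0.85, under the 2-fold minimum.

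Within the progenitors Mxd1 was lowest in CFUe, at -0.88 ± 0.18 against PreMegE (adjusted p 0.000611), short of 2-fold. It was -1.16 among low-Xist arrays and -1.39 with spike-in scaling, where it was called, and -0.28 with the second probe, where it was not.

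Subtracting Myc from Mxd1 on each array puts the exchange into a single number. Since the 2 probes differ in brightness for the same amount of RNA, only the change of this number between fractions has meaning. In KLS its mean was -2.67 ± 0.37 (SD over 3 arrays), and PreMegE had -2.74 ± 0.37, CFUe -3.03 ± 1.11, PreGM -2.80 ± 0.78 and GMP -2.21 ± 0.10. It then turned to 5.88 ± 0.11 in Ter119 and 8.62 ± 0.16 in Mac1Gr1. The 15 progenitor arrays lay between -4.31 and -2.12, and the 6 mature arrays between 5.77 and 8.80. The move was 8.91 from CFUe to Ter119 and 10.84 from GMP to Mac1Gr1. Between the mature fractions it differed by -2.75.

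**Figure D3:**
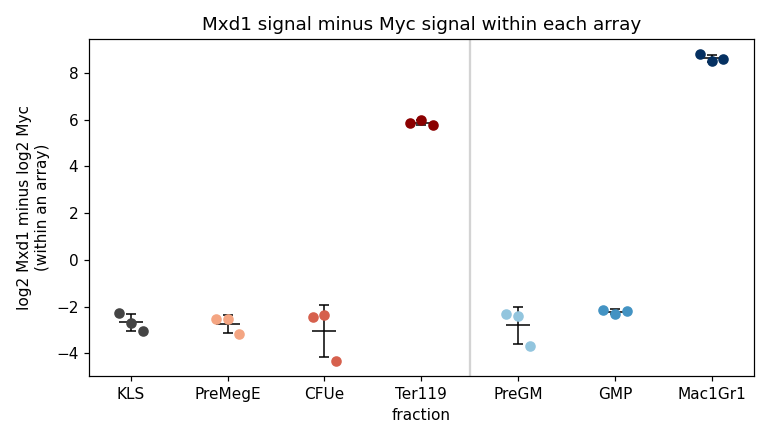
log2 Mxd1 minus log2 Myc within each array, by fraction. Points are arrays and bars the mean and SD over 3 arrays; the Ter119 and Mac1Gr1 arrays lie from 5.77 to 8.80 and all progenitor arrays from -4.31 to -2.12.

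Mxi1, a repressor close to MXD1, rose less at the same steps. Its level was 1.31, 1.05 and 0.61 in CFUe and 2.58, 2.31 and 2.13 in Ter119, and it was 1.18, 1.31 and 1.18 in GMP and 2.95, 2.89 and 2.73 in Mac1Gr1. Neither pair overlapped. The rises were 2.55-fold in Ter119 (1.35 ± 0.15, adjusted p 4.43e-07) and 3.10-fold in Mac1Gr1 (1.63 ± 0.15, adjusted p 3.95e-08), and with spike-in scaling the values turned to -0.028 and -0.40. Within a shared slide, the Ter119 array exceeded the CFUe array by 0.82. Ter119 and Mac1Gr1 differed by -0.52 ± 0.15, under 2-fold.

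Mxd3, the repressor of the family that is known from dividing cells, was highest in the Ter119 fraction, though well above background in every fraction. It was at 0.72, 1.46 and 1.35 there, at -3.21, -2.89 and -2.74 in CFUe, and at -1.73, -1.47 and -1.49 in Mac1Gr1. No other fraction reached the Ter119 values, the nearest being KLS at -1.40, -1.28 and -0.81. Mxd3 first fell from PreMegE to CFUe (-1.49 ± 0.20, adjusted p 7.61e-06) and then rose 17.4-fold from CFUe to Ter119 (4.12 ± 0.20, adjusted p 5.46e-12). It was 6.66-fold higher in Ter119 than in Mac1Gr1 (2.74 ± 0.20, adjusted p 3.47e-09). From GMP to Mac1Gr1 the value was 0.49 ± 0.20 (adjusted p 0.0333), below 2-fold. The second Mxd3 probe gave 3.85 from CFUe to Ter119 and 2.76 between Ter119 and Mac1Gr1, and the rise was 3.91 among low-Xist arrays. Proliferation genes differed in the same direction between the mature fractions (10 of 12 higher in Ter119, with 23.5% of all genes called higher), and so did B cell genes (7 of 7 higher, mean level 2.31 to 2.73 in Ter119 and 0.0930 to 0.764 in Mac1Gr1). Their part in the Mxd3 difference was not tested.

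Mxd4, a repressor of the same family known from differentiating cells, was lowest in CFUe, at -2.26, -1.86 and -1.48. It was -0.63, -0.25 and -0.53 in PreMegE, -1.71, -0.74 and -1.26 in Ter119 and 0.02, -0.01 and -0.08 in Mac1Gr1. CFUe overlapped Ter119 but not PreMegE. Mxd4 fell from PreMegE to CFUe (-1.39 ± 0.21, adjusted p 2.69e-05), and this call held in every alternative run, at -1.01 among low-Xist arrays. It was lower in CFUe than in GMP (-1.04 ± 0.21, adjusted p 0.000466), a value that passed 2-fold narrowly and no longer did without CFUe replicate 1 (-0.84) or GMP replicate 2 (-0.96). Nor did it with quantile scaling (-0.90), normexp (-0.81), the authors' normalized values (-0.93) or slides as a block (-0.99). Mxd4 was lower in Ter119 than in Mac1Gr1 (-1.21 ± 0.21, adjusted p 6.76e-05). That value was under 2-fold without Ter119 replicate 1 (-0.98), with normexp (-0.89) and with slides as a block (-0.81). The Mxd4 values at the last steps were 0.63 ± 0.21 in Ter119 and 0.81 ± 0.21 in Mac1Gr1, neither past 2-fold.

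The 2 lineages were then compared step by step, by testing whether a gene moved by a different amount on the erythroid than on the myeloid side. At the middle step (PreMegE to CFUe against PreGM to GMP) 3 of the 9 genes differed, with 22.1% of all genes called: Mxd3 fell on the erythroid side, Mycl fell on the myeloid side, and Mycn was called, but since it ended below background in both CFUe and GMP its 2 falls cannot be ordered. At the last step 4 differed, with 41.3% of all genes called. Max rose on the myeloid side and Mxd3 on the erythroid side. Myc, read by its brightest probe, fell further on the myeloid side, while Mycn differed near background. For the dimmest Myc probe the erythroid and myeloid falls were alike (-1.90 and -1.91), and for the remaining probe they were -3.79 and -5.03. The last-step calls of Myc and Mycn were lost when some single arrays were left out, of CFUe and Mac1Gr1 for both and of Ter119 and GMP for Mycn. Both calls were also lost with normexp, slides as a block, a block for Xist and the compared fractions alone. The middle-step calls of Mycl and Mxd3 were lost with normexp (0.99 and -0.94), and that of Mycl also with spike-in scaling (0.084). Mxd1 did not pass 2-fold at either step (-0.88 ± 0.26 and -0.70 ± 0.26). Ter119 and Mac1Gr1 share no Xist class, so for differences between these 2 fractions lineage and the origin of the animals cannot be told apart.

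Within arrays of a single Xist class the last-step changes could be measured in both lineages. From CFUe replicate 3 to the 3 Ter119 arrays, all with low Xist, Myc changed by -4.70 ± 0.23 (adjusted p 1.78e-10), Mxd1 by 5.48 ± 0.17 (adjusted p 2.18e-12) and Mxi1 by 1.73 ± 0.17 (adjusted p 4.77e-07). Here 59.9% of all genes were called. The lone CFUe array was assumed to vary like the rest. GMP and Mac1Gr1 both had high Xist on all arrays, so their values needed no split. Replicate 3 of PreGM, also of low Xist, lay 0.60 above the other PreGM arrays in Myc, 0.74 below them in Mxd1 and 0.85 below them in Mnt, the same directions as in CFUe. The granulocytic list stood apart on the same arrays, with a mean level of 0.74 on PreGM replicate 3 against -0.93 and -1.09 on the other PreGM arrays, and of -1.58 on CFUe replicate 3 against -3.68 on both others. The part of the origin of the animals or of other cells in these shifts was not tested.

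**Figure D4:**
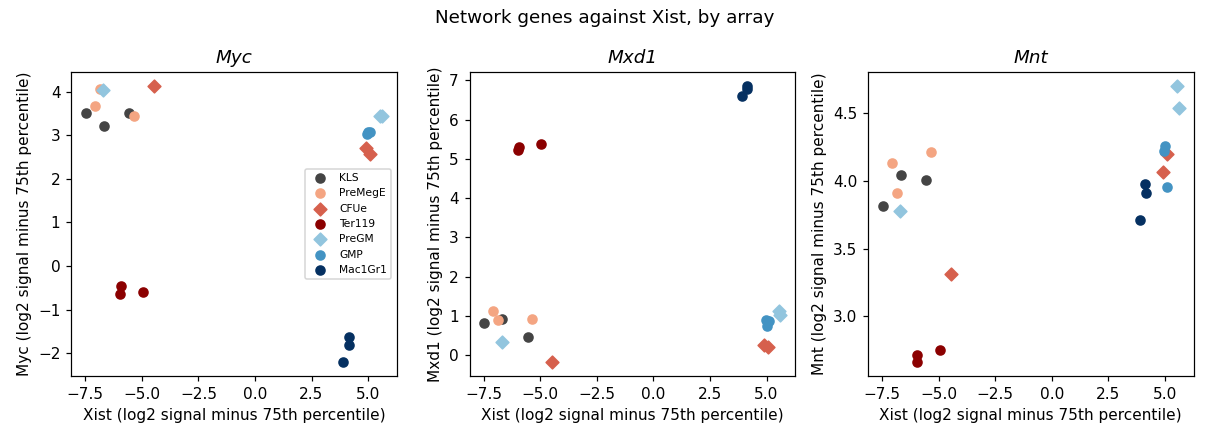
Level of Myc, Mxd1 and Mnt (vertical) against Xist (horizontal) on each of the 21 arrays, all as log2 signal minus the array's 75th percentile. Diamonds mark CFUe and PreGM, the 2 fractions that hold arrays of both Xist classes; their low-Xist arrays have the higher Myc and the lower Mxd1 and Mnt of their fraction.

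Textbook MYC targets were read beside the network. Of 24 such genes 23 were measured, and they were low where Myc was low. At the last erythroid step 21 of 23 fell and 1 rose, with a median log2 change of -3.69 against -0.06 over all genes. At the last myeloid step 21 fell and 1 rose, with a median of -4.08 against 0.06. Over all genes 31.9% and 30.8% were called lower at these steps, and 29.3% and 26.9% higher. The largest falls into Ter119 were those of Srm, the spermidine synthase (-5.36), the nucleolar Gnl3 (-4.91) and Cad, which starts pyrimidine synthesis (-4.73). Into Mac1Gr1 they were Srm (-5.77), the cell cycle kinase Cdk4 (-4.96) and Ppat, which starts purine synthesis (-4.93). Tert, the telomerase catalytic subunit, was the gene that rose (1.95 and 1.80). Nme1, a nucleoside diphosphate kinase with an E-box shown above, changed by -3.59 and -4.36 on the log2 scale, and Cdk4, with 4 E-boxes, by -3.71 and -4.96.

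A pair of targets parted the lineages. Odc1, which starts polyamine synthesis, was -0.19 from CFUe to Ter119 and not called, but fell by 3.19 from GMP to Mac1Gr1, and was higher in Ter119 than in Mac1Gr1 by 3.84. Ldha, a lactate dehydrogenase gene that also holds E-boxes, fell by 1.88 into Ter119 and read 0.15, not called, into Mac1Gr1. Between the mature fractions 12 targets were higher in Ter119 and 1, Ldha (-1.46), was lower, with 23.5% and 19.5% of all genes called in these directions. With spike-in scaling 4 were higher and 1 lower. After Odc1, the largest differences were those of Shmt2 (2.47), a mitochondrial enzyme of folate metabolism, and Ppat (1.997).

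Earlier in the erythroid lineage targets rose at a step where no rise of Myc was called. From PreMegE to CFUe 11 of 23 were higher and 0 lower (median 0.98, against 0.19 over all genes, with 11.7% of all genes called higher), led by Mrto4 (1.68), a factor of ribosome assembly, Srm (1.35) and Gnl3 (1.33). With quantile scaling 4 were called higher and 1 lower, and with spike-in scaling 1 higher and 1 lower. CFUe exceeded GMP in 6 of 23 (11.9% of all genes higher), the largest being Gnl3 (1.26), Cad and Nop58, a nucleolar protein (both 1.19). The direction of this last difference turned with spike-in scaling, under which 0 targets were higher and 5 lower in CFUe than in GMP, and with quantile scaling 1 was higher. No target was called from KLS to PreMegE, KLS to PreGM, PreGM to GMP or between PreMegE and PreGM. By limma without the 2-fold minimum the counts were 7, 12, 0 and 3, and at an unadjusted p under 0.05 they were 13, 15, 4 and 4. Shares of all genes at these looser thresholds were not computed, so these counts cannot be set against other genes. With spike-in scaling 17 were called higher from PreGM to GMP and 1 lower from KLS to PreGM. Under that scaling the median change of all probes was 0.99 from PreGM to GMP and -1.16 in CFUe against GMP, and shares of all genes were not computed. Of 12 proliferation genes 8 fell from CFUe to Ter119 (31.9% of all genes lower), 12 fell from GMP to Mac1Gr1 (30.8%), and 4 rose from PreMegE to CFUe (11.7% of all genes higher).

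**Figure D5:**
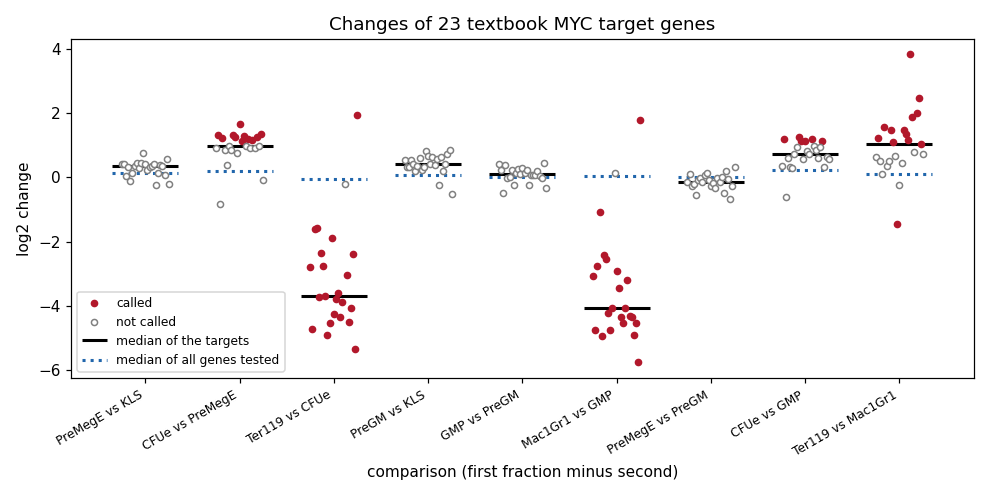
log2 change of 23 textbook MYC target genes in 9 comparisons, the first fraction minus the second. Filled points were called, open points were not, black lines are the median of the targets and dotted lines the median of all genes tested; the targets sit at -3.69 and -4.08 at the last steps.

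Of 5 genes that MYC is known to lower, 4 rose from CFUe to Ter119, where 29.3% of all genes were called higher, and 4 were called higher from GMP to Mac1Gr1, where 26.9% were. Cdkn1b, which encodes the cell cycle inhibitor p27, rose by 2.66 in Ter119 and 2.02 in Mac1Gr1, the stress gene Gadd45a by 1.99 and 2.38, and Ndrg1, a differentiation-associated gene, by 2.57 and 2.15. Cdkn1a, which encodes p21, parted the lineages: it rose by 2.08 into Ter119 and fell by 2.61 into Mac1Gr1. The fourth gene called in Mac1Gr1 was Cdkn2b, an inhibitor of CDK4, which was well above background on 1 of 3 GMP arrays. Cdkn2b read -7.28, -7.73 and -4.01 in GMP and -4.17, -4.25 and -3.78 in Mac1Gr1, so that the fractions overlapped and the size of the change was not measured. From PreMegE to CFUe 3 of the 5 fell, Cdkn1a (-4.75), Ndrg1 (-4.91) and Cdkn1b (-1.14), where 14.2% of all genes were called lower.

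Transcripts of proteins that work with the network moved in both directions. Of 7 coactivator genes 4 fell from CFUe to Ter119 (31.9% of all genes lower), led by the AAA ATPases Ruvbl2 (-3.61) and Ruvbl1 (-3.58) and by Wdr5 (-1.94), and 2 fell from GMP to Mac1Gr1 (30.8% of all genes lower), Ruvbl1 (-3.48) and Ruvbl2 (-2.98). Among 4 corepressor genes Hdac2 fell at both steps (-1.80 and -2.81) and Ncor1 rose in Mac1Gr1 (1.02). By their brightest probes Sin3a and Sin3b, the scaffolds that MXD proteins recruit, were called at neither step. Their values were -0.89 and -0.19 in Ter119, and -0.27 and 0.91 in Mac1Gr1. A dimmer Sin3b probe read -0.52 to -0.32 in GMP and 1.67 to 1.86 in Mac1Gr1, without overlap. Its Ter119 arrays also lay above its CFUe arrays, so the reading of Sin3b depended on the probe. Of the further MAX and MLX partners, Mga fell in Ter119 (-1.52), Mlxipl rose at both last steps (1.104 and 1.19), and Mlx rose from PreGM to GMP (1.47).

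Of 5 genes that bind MYC or set the life of its protein, Bin1 and Usp28 moved in opposite directions at the last steps. Bin1, a MYC-binding protein gene, fell from PreMegE to CFUe by 4.65, rose by 4.04 into Ter119 and fell by 1.94 into Mac1Gr1. Usp28, a deubiquitinase that spares MYC, rose by 3.56 into Ter119 and fell by 1.23 into Mac1Gr1. The ubiquitin ligase gene Huwe1 fell at both (-1.83 and -2.07), and Zbtb17, which encodes MIZ1, fell in Ter119 (-1.38). Fbxw7, whose ligase marks MYC for destruction, was called at no step.

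The genes most like Myc and Mxd1 over the 21 arrays were sought among 10166 genes above background on every array. Pearson correlations with Myc were highest for Cibar1 (0.987), Ivns1abp (0.986) and Srd5a1 (0.986), and lowest for Kdm7a (-0.984), Grina (-0.982) and Adpgk (-0.979). With Mxd1 they were highest for Inpp4a (0.991), Gsn (0.988) and Adam8 (0.987), and lowest for Coq2 (-0.997), Dhx35 (-0.996) and Cln6 (-0.995). Adam8, a neutrophil protease gene, stood at a level of 6.40 in Ter119 and 8.78 in Mac1Gr1, and between -1.80 and -0.64 in the progenitor fractions. These correlations follow the split between 6 mature and 15 progenitor arrays, which all arrays of a fraction share.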

How the data were processed

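RNA from 7 sorted fractions, 3 samples each, was hybridised with Cy3 label to 1-colour mouse arrays. The deposited scanner files hold background-corrected intensity values on a linear scale, the output of Agilent Feature Extraction 10.7.1.1 per the file headers. As an alternative, a table of log2 values was used that the authors had normalized across arrays and deposited with the series. No count of reads underlies these data, and the number of arrays limits the precision.

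The values used were log2 intensity minus the 75th percentile of 43379 non-control spots per array. From 80 to 283 outlier spots per array were left out, none was saturated, and spots of a probe were averaged. Symbols came from RefSeq accessions for 26690 of 41174 probes (64.8%). A probe entered the fit if the 3 arrays of some fraction were all well above background, which 29532 probes met. The fit used limma 3.58.1 (R 4.3.3) with lmFit, eBayes and two-sided tests, a mean per fraction and no covariate. The fit left 14 residual degrees of freedom and a median residual SD of 0.262. Adjusted p-values are Benjamini-Hochberg over these probes within a comparison, also where called shares are given over 14285 genes, each by its brightest probe. Such a filter passed all 9 genes, Mycl through PreGM and Ter119 and Mycn through KLS, PreMegE and PreGM. For a fraction with no array above background the fold is a lower bound: on each of its arrays the probe's signal, or the dimmest signal above background where that was higher, was averaged and set against the brighter fraction. The procedure was tested on simulated data.

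The network genes and all lists were chosen with earlier results of these data known. Named genes were the network genes, all called members of lists of 5 or fewer genes, the 3 largest called changes in each direction of longer lists, and the 3 genes most and least like Myc and Mxd1; Odc1, Ldha, Nme1, Fbxw7, Sin3a, Sin3b and some further values of list members were named after their values were seen. Nop56, Hdac1 and Skp2 were not matched and were not analysed here. Alternatives were quantile and spike-in scaling (7 of 10 spike-in sequences), normexp background correction (offset 50, on the median signal), no filter on dim probes, no minimum fold, slide or replicate number as a block, the compared fractions alone, other probes, the series table and leaving out each array. A block for Xist, fits within 1 Xist class and leaving out replicate 3 of CFUe and PreGM were chosen after seeing the data. Motifs were searched on both strands of the RefSeq promoters of GRCm38.p6.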

Additional observations from a re-analysis of the deposited data

Results flagged for a closer look

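The changes of 5 network genes differed between the erythroid and the myeloid side when the difference itself was tested in limma, in 7 cases, each given as the erythroid minus the myeloid log2 change with its SE. At the middle step the difference was -3.20 ± 0.60 for Mycn (adjusted p 0.000505), 1.61 ± 0.45 for Mycl (adjusted p 0.00983) and -1.54 ± 0.28 for Mxd3 (adjusted p 0.000385). At the last step it was 1.23 ± 0.43 for Myc (adjusted p 0.0236), 1.66 ± 0.60 for Mycn (adjusted p 0.0263), -2.24 ± 0.17 for Max (adjusted p 8.56e-09) and 3.63 ± 0.28 for Mxd3 (adjusted p 1.38e-08). Mycn was below background on all arrays of CFUe and GMP, and at the last step also of Mac1Gr1, so at both steps its value is no measured difference. With spike-in scaling the Mycl difference at the middle step was 0.084 (adjusted p 0.899 in limma). With normexp it was 0.99, and that of Mxd3 was -0.94, both under 2-fold. Of the fractions in that comparison, only PreGM had Mycl well above background on all arrays. The Myc difference at the last step was 1.02 without CFUe replicate 1 (adjusted p 0.0668), 0.95 without CFUe replicate 2 (adjusted p 0.0717) and 1.07 without Mac1Gr1 replicate 1 (adjusted p 0.0622), and was then no longer called. With the Xist class of the arrays as a block the Myc difference was 0.53 (adjusted p 0.149) in limma. In limma the Myc difference was also not called with normexp (0.91, adjusted p 0.0511) or slides as a block (1.38, adjusted p 0.115). Nor was it with the compared fractions alone (1.23, adjusted p 0.0535). The erythroid and myeloid values of the dimmest Myc probe were alike, at -1.90 and -1.91. Those of the remaining Myc probe were -3.79 and -5.03. The Mycn difference at the last step was no longer called when any of 7 arrays (CFUe replicates 1 and 2, Ter119 replicate 3, GMP replicates 1 and 2, Mac1Gr1 replicates 1 and 3) was left out, with values from 1.24 to 1.60.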

How the results depend on the processing

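Of 81 changes of network genes 29 were called, and 11 of these stayed called in the same direction in every alternative other than another probe or a left-out array: Myc and Mxd1 at both last steps, Mxd3 in Ter119 against CFUe and against Mac1Gr1, Max in Ter119 against Mac1Gr1, Mxd4 from PreMegE to CFUe, and Mycn in CFUe against PreMegE, GMP against PreGM and PreMegE against PreGM. Spike-in scaling is per total RNA and not per cell. Under it the median change of all probes was -1.33 in Ter119 against CFUe and -1.86 in Mac1Gr1 against GMP. The median was 0.99 in GMP against PreGM and -1.16 in CFUe against GMP. Spike-in scaling turned the values that follow. In Mac1Gr1 against GMP it gave -1.69 for Mycn, -1.27 for Mycl, -1.54 for Mxd3, -1.23 for Mxd4 and -0.40 for Mxi1. In Ter119 against CFUe it gave -1.11 for Max and -0.028 for Mxi1, in CFUe against GMP -1.30 for Myc, -1.17 for Mycl and -1.08 for Max, and for the middle-step difference between lineages -1.53 for Myc and -1.09 for Max. The other Mycn probe turned Ter119 against Mac1Gr1 to -0.27.

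Counts of network genes called moved as follows. With spike-in scaling they were 5 for CFUe against PreMegE (all lower), 5 for GMP against PreGM (4 higher, 1 lower, in place of 0 and 2), 7 for Mac1Gr1 against GMP (1 higher, 6 lower, in place of 3 and 1), 1 for PreMegE against PreGM, 9 for CFUe against GMP (all lower) and 8 middle-step differences. With normexp they were 1 for each of PreGM against KLS, GMP against PreGM, PreMegE against PreGM and the middle-step differences, 0 for CFUe against GMP, 4 for Ter119 against Mac1Gr1 and 2 last-step differences. Quantile scaling and the series table each gave 0 for CFUe against GMP and 5 for Ter119 against Mac1Gr1. The slide as a block gave 0 for PreGM against KLS, 0 for CFUe against GMP and 2 last-step differences. The Xist block gave 4 for Ter119 against Mac1Gr1 and 2 last-step differences, as did fitting the compared fractions alone for the latter (2). Arrays of 1 Xist class, or leaving out replicate 3 of CFUe and PreGM, gave 2 for CFUe against GMP. Without a minimum fold the counts were 5 for CFUe against PreMegE, 4 for PreGM against KLS, 7 for Mac1Gr1 against GMP, 4 for CFUe against GMP and 6 middle-step differences. Shares of all genes without a minimum fold were not computed.

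Counts of MYC targets without a minimum fold were 7 for PreMegE against KLS, 22 for CFUe against PreMegE, 12 for PreGM against KLS, 3 for PreMegE against PreGM, 20 for CFUe against GMP and 21 for Ter119 against Mac1Gr1. For these counts too, no share of all genes was computed. Spike-in scaling gave 2 for CFUe against PreMegE, 1 for PreGM against KLS, 17 for GMP against PreGM and 5 for Ter119 against Mac1Gr1 (4 higher, 1 lower). Quantile scaling and the series table gave 5 for CFUe against PreMegE and 1 for CFUe against GMP, and the Xist block and 1 Xist class gave 1 for PreGM against KLS. Mxd1 minus Myc with normexp was 5.53 in Ter119, -2.03 in GMP and 8.02 in Mac1Gr1. Leaving out each array in turn gave 0 to 2 network genes for CFUe against GMP, 0 to 1 targets for PreGM against KLS and 2 to 5 last-step differences. The cause of these moves was not tested.

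Replicate numbers did not pair the samples: deviations of same-numbered samples of different fractions correlated between -0.430 and 0.369 (63 pairs, median 0.00234). A replicate block changed none of the 81 calls, with 7 network genes called in Ter119 against CFUe. Of the called changes 14 had both fractions on a shared slide, and all 16 differences within a slide had the same sign. These pairs are among the arrays that gave the calls, so the shared sign is no separate check on the slide. Signal over background limits Mycn, whose falls are bounds, and Mycl, which was above background on all arrays of PreGM and Ter119 only.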
